A study of Mus musculus with 8 samples.

Results

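The mRNAs of 43 DNA repair genes were followed through the maturation of mouse oocytes that had been derived in culture from embryonic stem cells. Genes were listed by name, and each matched 1 row of the deposited table of 55385 genes. They were sorted by role into 10 repair pathways, from the recognition of broken ends to the direct reversal of damaged bases. All 43 passed the filter on low counts, with 367 to 31923 reads over the 8 libraries.

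Oocytes came from 2 stem cell lines on a C57BL/6 x 129/SvJ background, both carrying Blimp1-mVenus and Stella-ECFP reporter transgenes. In the sex-converted XX line the XX cells came from male cells, and the native XX line was XX from the start. All oocytes were grown with gonadal somatic cells of female embryos of embryonic day 12.5 and collected on day 11 of growth culture, either directly at the germinal vesicle (GV) stage or after a further 16 hours of maturation at metaphase II (MII). Each group held 2 libraries of polyadenylated RNA that the labels call biological duplicates, each from a pool of 31 to 158 GV oocytes or 35 to 58 MII oocytes. GV oocytes are arrested in the first meiotic prophase, and MII oocytes are eggs arrested before fertilisation. Since each line is 1 cell line, a difference between the lines cannot be told apart from a difference between these particular cells. The animals or culture runs behind each duplicate are not named, so p-values measure the spread between these pools.

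A fully grown oocyte makes almost no new RNA, and it matures, is fertilised and begins embryonic life on mRNA that it stored while growing. Part of this store is degraded in maturation, and other mRNAs gain longer poly(A) tails and are then translated. The stored repair mRNAs and proteins serve both the long prophase arrest of the oocyte and the repair of damage in the sperm and egg genomes after fertilisation. Double-strand breaks are repaired by homologous recombination, which copies an intact strand, or by end joining, which ligates ends directly. The Fanconi anaemia pathway opens crosslinks between strands, and mismatch, nucleotide excision and base excision repair remove errors or lesions from 1 strand.

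Total counts were 10306471 to 14999003 reads per library. Values are given as CPM, counts scaled to a common library size and composition with TMM, the trimmed mean of M-values. On this scale each mRNA is set against the rest of its library, so any gain or loss of total mRNA per oocyte goes unmeasured, and fewer cells of a type cannot be told apart from less RNA per cell. Since polyadenylated RNA was selected, longer or shorter poly(A) tails likewise cannot be told apart from more or less mRNA. All 10 oocyte markers had reads in every library, with a sum of 12352 to 19930 CPM. Granulosa and cumulus markers, which stand for the follicle cells next to the oocyte, summed to 58.0 to 79.6 CPM at GV and 124.5 to 196 CPM at MII, with 2 to 7 of 16 at 0 reads. Markers of stroma and theca summed to 1.61 to 2.25 CPM at GV and 3.71 to 20.1 CPM at MII, with 4 to 6 of 10 at 0. Native MII replicate 1 had the highest sum of both somatic lists and of the oocyte list (19930 CPM). It was also the highest of the MII libraries for 22 of the 43 repair genes and for 16 of the 26 that were lower at MII in the native line. How often it was the highest over all tested genes was not counted, and the part of somatic RNA in these values was not tested.

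In the native line 9 of the 43 repair mRNAs rose from GV to MII and 26 fell, where 29.6% of all 14929 tested genes rose and 35.7% fell. In the sex-converted line 10 rose and 24 fell, where 29.3% of all tested genes rose and 36.2% fell. A gene was called at an adjusted p under 0.05 in edgeR's quasi-likelihood test. The calls coincided in 9 genes that rose and 24 that fell in both lines, and 0 genes were called in opposite directions. How often calls coincided over all tested genes was not counted. The median log2 fold change of MII over GV was -1.09 in the native and -1.02 in the sex-converted line over the repair genes, beside -0.31 and -0.35 over all tested genes. The sum of all 43 mRNAs nevertheless was higher at MII, at 2669 to 2773 CPM against 1918 to 2242 CPM at GV. The median repair mRNA instead was lower at MII, and went from 27.1 to 35.1 CPM in the GV libraries to 16.5 to 18.8 CPM in the MII libraries.

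The split depended on how libraries were scaled. When libraries were scaled by their totals alone, the median over all tested genes moved to -1.22 in the native and -1.28 in the sex-converted line, and all tested genes split into 2488 higher and 7614 lower and into 2372 and 7785. On that scale 5 repair genes rose and 29 fell in the native line, and 6 rose and 30 fell in the sex-converted line. The rises of Bard1, Palb2, Trp53bp1, Fancm and Msh6 were called on both scales in both lines, and that of Rbbp8 in the sex-converted line. The rises of Fancd2, Ogg1 and Lig4 were called with TMM scaling and not with library totals. Falls called only with library totals were those of Ung, Msh3 and Xpc in both lines. In the sex-converted line they also included Nbn, Pms2 and Xrcc4.

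**Figure D1:**
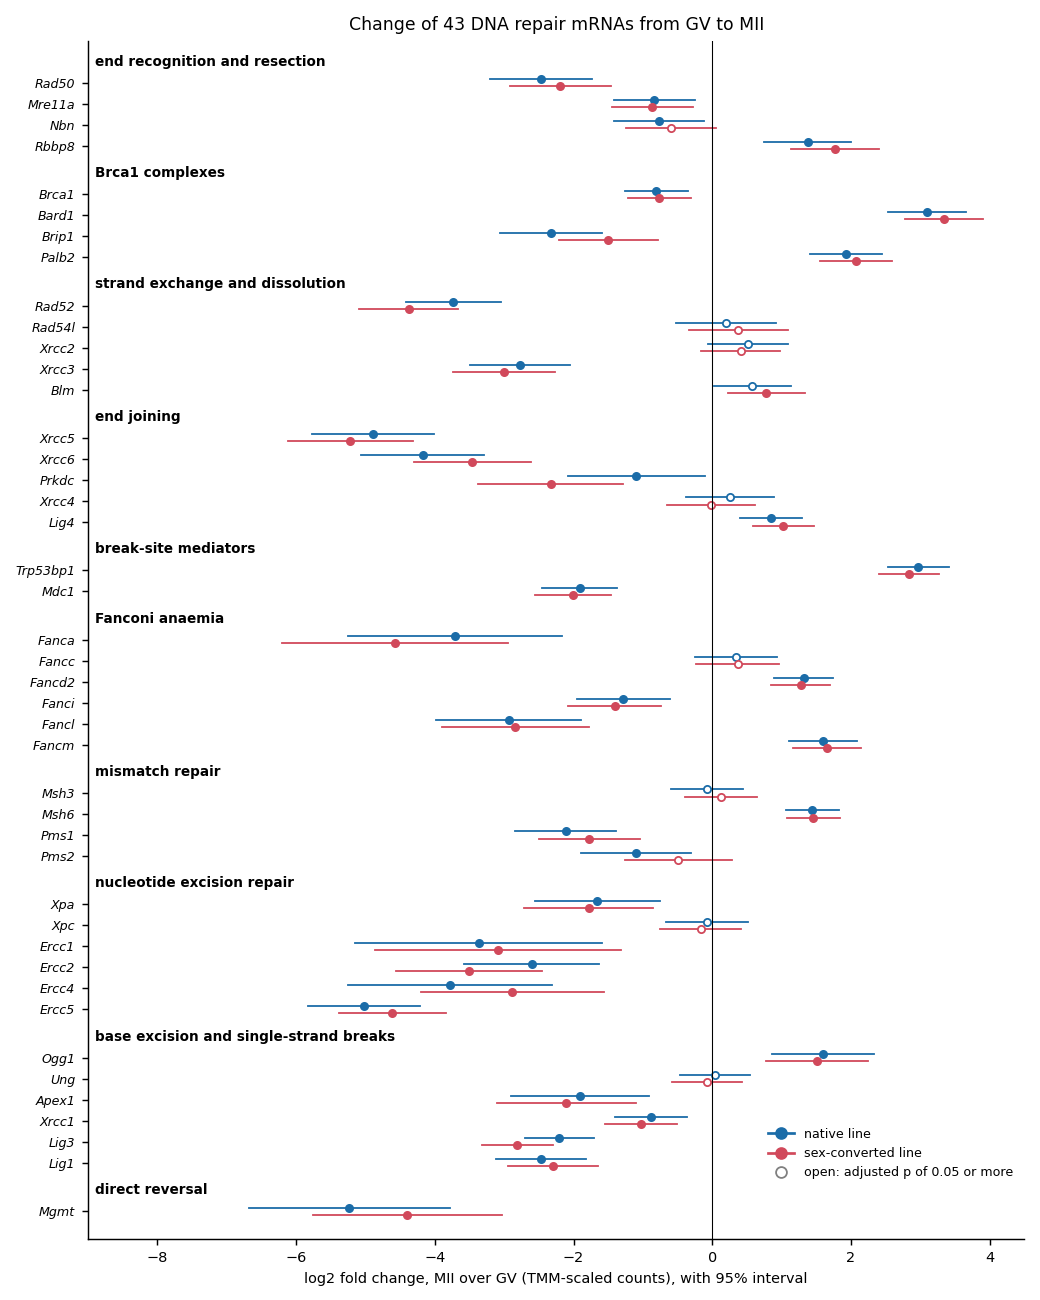
Log2 fold change of MII over GV for each of the 43 repair mRNAs, with its 95% interval, in the native line (blue) and the sex-converted line (red), grouped by pathway. Filled points passed the test at an adjusted p under 0.05. In most pathways points lie on both sides of 0. No filled point lies to the right of 0 in nucleotide excision repair or in direct reversal, which holds 1 gene. In strand exchange and dissolution this is so for the native line only.

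Broken ends are bound by the complex of Mre11a, Rad50 and Nbn, a nuclease with its tethering and signalling subunits, and Rbbp8 (CtIP) activates its nuclease to start resection. Rbbp8 rose in both lines, though with library totals in the sex-converted line only, while the subunits of the complex fell or did not pass the test. Rad50 was at 256 and 142 CPM in native GV oocytes and 43.3 and 28.5 CPM in native MII oocytes, and at 133 and 185 against 29.1 and 40.4 CPM in the sex-converted line. Every MII library was below every GV library, with log2 fold changes of -2.47 (SE 0.33, adjusted p = 6.62e-05 in edgeR) in the native line and -2.19 (SE 0.33, adjusted p = 0.000146) in the sex-converted line. Rbbp8 was at 90.7 and 53.1 CPM in native GV and 199 and 175 CPM in native MII oocytes, and at 45.6 and 68.2 against 169 and 219 CPM in the sex-converted line. All MII libraries lay above all GV libraries, and the log2 fold changes were 1.38 (SE 0.29, adjusted p = 0.00138 in edgeR) and 1.77 (SE 0.29, adjusted p = 0.000261). With library totals as the only scaling Rbbp8 had 0.47 in the native line, which was not called.

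Mre11a fell by 0.84 and 0.87 on the log2 scale in the native and sex-converted lines. Its calls were lost without native GV replicate 1 (-0.62) or native MII replicate 2 (-0.71), and without sex-converted GV replicate 2 (-0.70) or MII replicate 2 (-0.74). Nbn fell in the native line (-0.77, adjusted p = 0.0387 in edgeR) and had -0.59 in the sex-converted line, which did not pass. The native call of Nbn was lost without native GV replicate 1 (-0.39), native MII replicate 1 (-0.67) or native MII replicate 2 (-0.92). Rad50 is annotated on chromosome 11 at 53649519 to 53707319 (minus strand) in GRCm38.

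The partners of Brca1 moved apart. Brca1 is a ubiquitin ligase only when paired with Bard1, Palb2 links it to the recombination machinery, and Brip1 is a helicase that binds its phosphopeptide-binding domain. Bard1 and Palb2 rose, and Brca1 and Brip1 fell, in both lines. Bard1 was at 9.75 and 8.09 CPM in native GV and 85.1 and 67.3 CPM in native MII oocytes, and at 9.60 and 7.84 against 96.3 and 80.5 CPM in the sex-converted line. Its mRNA was thus low in all 4 GV libraries and high in all 4 MII libraries, with log2 fold changes of 3.09 (SE 0.26, adjusted p = 2.22e-06 in edgeR) and 3.34 (SE 0.26, adjusted p = 1.52e-06), the largest rise of the 43 in each line. Brca1 itself was at 128 and 99.9 CPM in native GV oocytes and 69.6 and 60.3 CPM in native MII oocytes, with -0.81 in the native and -0.77 in the sex-converted line. Without sex-converted MII replicate 1 the fall of Brca1 in that line was not called (-0.67, adjusted p = 0.064 in edgeR).

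Per kilobase of exon, Brca1 stood at 13.3 ± 2.30 and Bard1 at 1.58 ± 0.207 CPM per kilobase in GV oocytes of the native line (SD, n = 2 each). In eggs the order was the other way, at 7.61 ± 0.773 for Brca1 and 13.5 ± 2.22 CPM per kilobase for Bard1 (SD, n = 2 each). Palb2 rose from 35.1 and 25.0 to 124 and 105 CPM in the native line and had log2 fold changes of 1.92 and 2.07. Brip1 was at 84.9 and 48.5 CPM in native GV and 10.4 and 16.3 CPM in native MII oocytes, and at 46.7 and 58.9 against 20.7 and 16.6 CPM in the sex-converted line. Its groups did not overlap in either line, and the log2 fold changes were -2.33 (SE 0.33, adjusted p = 0.000104 in edgeR) and -1.50 (SE 0.32, adjusted p = 0.00178). Bard1 is annotated on chromosome 1 at 71027498 to 71103146 (minus strand), and Brip1 on chromosome 11 at 86058138 to 86201193 (minus strand).

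Among genes of strand exchange and dissolution, 2 of 5 fell in each line, and 0 rose in the native and 1 in the sex-converted line. Of all tested genes, 35.7% and 36.2% fell and 29.6% and 29.3% rose in the native and sex-converted lines. Rad52, a protein that anneals complementary strands, was at 45.6 and 37.4 CPM in native GV and 3.53 and 2.66 CPM in native MII oocytes, and at 34.9 and 45.6 against 1.75 and 2.09 CPM in the sex-converted line. The MII values were all far below the GV values, with log2 fold changes of -3.73 (SE 0.31, adjusted p = 2.26e-06 in edgeR) and -4.38 (SE 0.33, adjusted p = 1.35e-06). Xrcc3, a paralog of the strand exchange recombinase, fell as well, with -2.77 and -3.01. Xrcc2, another paralog, had 0.51 and 0.41 and did not pass the test in either line, though it was called without native GV replicate 2 (0.85). Rad54l, a motor protein of strand exchange, had 0.20 and 0.37 and did not pass. Blm, the helicase that dissolves joint molecules, rose in the sex-converted line (0.78, adjusted p = 0.0181 in edgeR) and had 0.58 in the native line, which did not pass (adjusted p = 0.0627). The call of Blm was lost without sex-converted GV replicate 1 (0.68) or MII replicate 2 (0.63), it was gained in the native line without native GV replicate 1 (1.00), and with library totals as the only scaling its sign turned in the sex-converted line (-0.15).

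In end joining the mRNAs of the end-binding complex fell in both lines, and that of the ligase rose with TMM scaling but was not called with library totals. Xrcc5 and Xrcc6 encode Ku80 and Ku70, which form the ring that slides onto broken ends and recruits the kinase Prkdc, and Lig4 with Xrcc4 seals the ends. Xrcc5 was at 118 and 76.6 CPM in native GV and 4.58 and 1.85 CPM in native MII oocytes, and at 83.0 and 107 against 2.52 and 2.57 CPM in the sex-converted line. It was high in every GV library and low in every MII library, with log2 fold changes of -4.89 (SE 0.40, adjusted p = 2.05e-06 in edgeR) and -5.22 (SE 0.41, adjusted p = 1.69e-06). Without native MII replicate 1, the library with the highest sums of somatic and of oocyte markers, it had -5.72 in that line. Xrcc6 fell with its partner, from 60.4 and 52.3 to 3.53 and 2.66 CPM in the native line and from 54.8 and 51.7 to 2.63 and 6.94 CPM in the sex-converted line. The log2 fold changes of Xrcc6 were -4.17 and -3.46, and -4.34 in the sex-converted line without sex-converted MII replicate 2.

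Lig4 was at 96.7 and 92.7 CPM in native GV and 144 and 196 CPM in native MII oocytes, and at 87.7 and 101 against 201 and 182 CPM in the sex-converted line. The MII libraries were all above the GV libraries on this scale, with log2 fold changes of 0.85 (SE 0.20, adjusted p = 0.00336 in edgeR) and 1.03 (SE 0.20, adjusted p = 0.000984). This direction depended on the scaling, since with library totals Lig4 had -0.062 in the native and 0.091 in the sex-converted line, and leaving out native MII replicate 2 also ended the native call (0.58, adjusted p = 0.0654 in edgeR). Prkdc was at 3.38 to 5.31 CPM in the GV libraries and 0.876 to 2.20 CPM in the MII libraries, and it had log2 fold changes of -1.10 (adjusted p = 0.0498 in edgeR) and -2.33. The native call of Prkdc was lost without either native GV replicate (-0.93 and -1.24), without native MII replicate 2 (-0.80), without sex-converted GV replicate 1 (-1.10) or 2 (-1.10), without sex-converted MII replicate 1 (-1.12) or 2 (-1.11), in DESeq2 (-1.10), with RLE factors (-1.06), with the replicate block (-1.11), with only the 4 libraries compared (-1.09) and with no filter on low counts (-1.19, adjusted p = 0.0696 in edgeR). Xrcc4 had 0.25 and -0.02 and did not pass. Xrcc5 is annotated on chromosome 1 at 72307421 to 72394952 (plus strand), and Lig4 on chromosome 8 at 9969049 to 9977686 (minus strand).

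The 2 mediators that gather at break sites went opposite ways. Trp53bp1, which shields ends from resection and favours end joining, was at 73.9 and 95.4 CPM in native GV and 624 and 705 CPM in native MII oocytes, and at 91.1 and 83.0 against 671 and 568 CPM in the sex-converted line. All MII libraries were several times above all GV libraries, with log2 fold changes of 2.97 (SE 0.20, adjusted p = 7.44e-07 in edgeR) and 2.83 (SE 0.20, adjusted p = 9.55e-07). Mdc1, the scaffold that reads phosphorylated H2AX, was at 83.4 and 69.2 CPM in native GV and 24.0 and 16.5 CPM in native MII oocytes, and at 81.5 and 74.4 against 18.5 and 20.3 CPM in the sex-converted line. Its groups did not overlap, with log2 fold changes of -1.91 (SE 0.25, adjusted p = 4.75e-05 in edgeR) and -2.01 (SE 0.25, adjusted p = 3.38e-05). Trp53bp1 is annotated on chromosome 2 at 121193281 to 121271407 (minus strand), and 15.0% of its exon bases overlap Tubgcp4 on the other strand. Tubgcp4 had 77 to 99 reads in the GV libraries and 26 to 44 in the MII libraries. Mdc1 is annotated on chromosome 17 at 35841515 to 35859670 (plus strand).

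**Figure D2:**
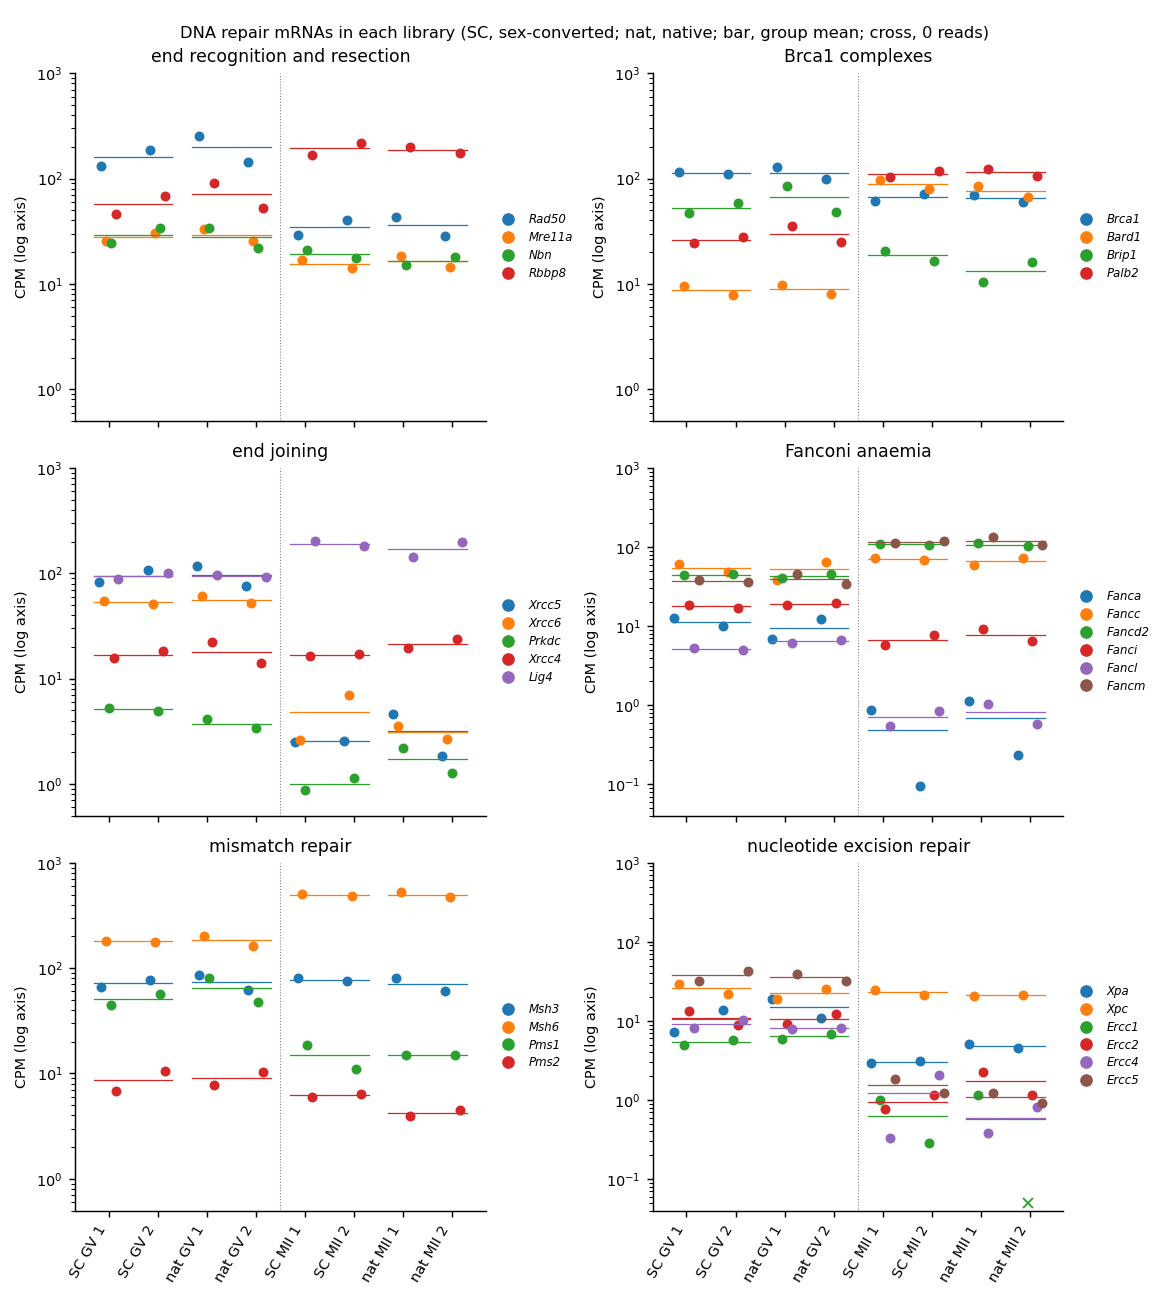
CPM of repair mRNAs in each of the 8 libraries, on a log axis, for 6 pathways. Points are libraries, bars are the means of the 2 libraries of a group and the cross is a library with 0 reads. Bard1, Palb2, Rbbp8, Lig4, Fancd2, Fancm and Msh6 stand higher to the right of the dotted line, and Xrcc5, Xrcc6 and Ercc5 stand lower there in every library.

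In the Fanconi anaemia pathway Fancm, Fancd2, Fanci, Fancl and Fanca changed and Fancc did not pass the test. Fancm is the translocase that brings the pathway to a crosslink, Fanca and Fancc belong to the core complex, Fancl is its ubiquitin ligase subunit, and Fancd2 and Fanci form the pair that it modifies. Fancm was at 45.7 and 34.1 CPM in native GV and 134 and 107 CPM in native MII oocytes, and at 37.9 and 36.6 against 113 and 121 CPM in the sex-converted line. Its groups did not overlap, with log2 fold changes of 1.60 (SE 0.22, adjusted p = 8.37e-05 in edgeR) and 1.65 (SE 0.22, adjusted p = 6.59e-05). The modified pair split with TMM scaling, as Fancd2 rose and Fanci fell, though with library totals Fancd2 was not called. Fanci was at 18.6 and 19.6 CPM in native GV and 9.17 and 6.48 CPM in native MII oocytes, and at 18.7 and 16.9 against 5.69 and 7.70 CPM in the sex-converted line. All GV libraries were above all MII libraries, with log2 fold changes of -1.28 (SE 0.30, adjusted p = 0.00318 in edgeR) and -1.40 (SE 0.30, adjusted p = 0.00185). Fancd2 was at 40.3 and 45.6 against 112 and 103 CPM in the native line, with log2 fold changes of 1.32 and 1.28 that became 0.40 and 0.34 with library totals as the only scaling and were then not called.

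Fanca and Fancl fell to about 1 CPM or less. Fancl had log2 fold changes of -2.94 and -2.84. Fanca had 296 reads at GV and 14 at MII in the native line, a scaled ratio of GV over MII of 12.6 (95% counting interval 7.37 to 23.3), and 417 and 9 reads in the sex-converted line, a ratio of 24.4 (12.7 to 53.8). Single libraries set the size of this fall, since the native ratio of Fanca was 39.8 without MII replicate 1 and 8.03 without MII replicate 2, and the sex-converted ratio 118 and 12.8 in the same order. Counting intervals cover counting error only. Fancc had 0.34 and 0.37 and did not pass, but was called without native GV replicate 2 (0.77). Fancm is annotated on chromosome 12 at 65075603 to 65132058 (plus strand), and Fanci on chromosome 7 at 79391929 to 79450264 (plus strand), with 16.0% of its exon bases overlapping Polg on the other strand.

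Of the mismatch repair genes, Msh6 recognises base mismatches as part of a heterodimer. Its mean per kilobase of annotated exon was the highest of all 43 repair mRNAs in each of the 4 groups. In native GV oocytes this lead was within the spread, with Msh6 at 42.2 ± 6.52, Xrcc5 at 38.1 ± 11.5 and Rad50 at 37.0 ± 14.9 (SD, n = 2 each). Msh6 was at 203 and 163 CPM in native GV and 529 and 470 CPM in native MII oocytes, and at 180 and 179 against 502 and 483 CPM in the sex-converted line. Every MII library was above every GV library, with log2 fold changes of 1.44 (SE 0.17, adjusted p = 2.86e-05 in edgeR) and 1.46 (SE 0.17, adjusted p = 2.72e-05). Msh3, which takes the place of Msh6 at larger loops, had -0.08 and 0.12 and did not pass. With library totals Msh3 was called lower in both lines. Pms1, an accessory MutL homolog, was at 81.1 and 47.6 CPM in native GV and 14.9 and 14.8 CPM in native MII oocytes, and at 44.7 and 57.3 against 18.8 and 11.0 CPM in the sex-converted line. Its groups did not overlap, with log2 fold changes of -2.12 (SE 0.33, adjusted p = 0.000205 in edgeR) and -1.78 (SE 0.33, adjusted p = 0.000666). Pms2, the endonuclease subunit that nicks the strand, fell in the native line (-1.09) and had -0.49 in the sex-converted line, which did not pass. The call of Pms2 was lost without native GV replicate 2 (-0.88) or native MII replicate 1 (-1.005). Msh6 is annotated on chromosome 17 at 87975062 to 87990892 (plus strand), and Pms1 on chromosome 1 at 53189187 to 53297018 (minus strand).

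Nucleotide excision repair had 5 of 6 genes lower and 0 higher at MII in each line. Their median log2 fold change was -2.99 in both lines. Of all tested genes, 35.7% and 36.2% were lower and 29.6% and 29.3% higher in the native and sex-converted lines. In the wider list 5 of 14 further genes of this pathway rose in each line, so the split is that of these 6 genes. The summed level of the 6 was 96.1 to 100.2 CPM in native GV and 28.8 to 30.9 CPM in native MII oocytes. Ercc5, the nuclease that cuts on the downstream side of a lesion, was at 39.0 and 32.4 CPM in native GV and 1.24 and 0.926 CPM in native MII oocytes, and at 32.3 and 43.3 against 1.86 and 1.24 CPM in the sex-converted line. It was high in every GV library and near 1 CPM in every MII library, with log2 fold changes of -5.02 (SE 0.37, adjusted p = 1.15e-06 in edgeR) and -4.61 (SE 0.35, adjusted p = 1.46e-06). Ercc4 and Ercc1, the subunits of the nuclease that cuts on the other side, fell as well, from 260 to 11 and from 203 to 12 reads in the native line. The scaled ratio of GV over MII was 14.0 for Ercc4 (95% counting interval 7.72 to 28.5) and 10.1 for Ercc1 (5.63 to 19.8). In the sex-converted line the ratios were 7.31 (4.87 to 11.5) and 8.82 (4.94 to 17.4).

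These ratios moved with single MII libraries. The native ratio of Ercc4 was 9.98 without MII replicate 1 and 21.2 without MII replicate 2, and the sex-converted ratio 4.45 and 28.3 in the same order. For Ercc1 it was at least 18.2 without native MII replicate 1, where 0 reads were left and the floor of 3 reads was used, and 5.51 without replicate 2. In the sex-converted line Ercc1 had 18.9 and 5.47 without MII replicates 1 and 2, and the call was lost without replicate 2 (adjusted p = 0.0547 in edgeR). Ercc2, a helicase of the transcription factor TFIIH that opens the lesion, had log2 fold changes of -2.61 and -3.51, and -3.21 in the native line without native MII replicate 1. Xpa, which verifies the damage, had -1.66 and -1.78. Xpc, which finds the lesion first, had 19.0 to 29.4 CPM in the GV libraries and 20.8 to 24.6 CPM in the MII libraries. Its log2 fold changes were -0.07 and -0.17 and did not pass, though with library totals Xpc was called lower in both lines. Ercc5 is annotated on chromosome 1 at 44147744 to 44181260 (plus strand).

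In base excision and single-strand break repair the 4 mRNAs of later steps fell in both lines. The glycosylase mRNA Ogg1 rose with TMM scaling but was not called with library totals. The glycosylase mRNA Ung did not pass the test with TMM scaling but was called lower in both lines with library totals. Ogg1, the glycosylase that removes oxidised guanine, was at 12.0 and 23.1 CPM in native GV and 56.2 and 49.6 CPM in native MII oocytes, and at 22.5 and 13.6 against 52.0 and 50.4 CPM in the sex-converted line. The groups did not overlap, with log2 fold changes of 1.59 (SE 0.34, adjusted p = 0.00155 in edgeR) and 1.50 (SE 0.33, adjusted p = 0.00217), which with library totals became 0.67 and 0.56 and were not called. Ung, which removes uracil, had 0.03 (95% interval -0.47 to 0.54) and -0.07 (-0.58 to 0.43) and did not pass the test. Lig1, the replicative ligase, was at 27.8 and 24.3 CPM in native GV and 5.35 and 4.05 CPM in native MII oocytes, and at 26.3 and 24.0 against 4.49 and 5.71 CPM in the sex-converted line. Its groups were far apart, with log2 fold changes of -2.47 (SE 0.30, adjusted p = 2.83e-05 in edgeR) and -2.30 (SE 0.29, adjusted p = 4.37e-05).

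The single-strand break ligase Lig3 had -2.20 and -2.81, and its scaffold Xrcc1 -0.89 and -1.02. The native call of Xrcc1 was lost without native MII replicate 2 (-0.76, adjusted p = 0.0554 in edgeR). Apex1, the endonuclease that cuts at sites without a base, had -1.91 and -2.10, and -2.66 in the native line without native MII replicate 1. Its value is uncertain, because 61.7% of its exon bases overlap Pip4p1 on the other strand and which strand was counted is not stated in these sources. The same holds to a smaller degree for Lig3, with 25.1% of its exon bases overlapping Rffl, and in all 24 of the 43 genes shared exon bases with a gene on the opposite strand. The 3 ligase genes thus differed in direction, with Lig1 and Lig3 lower at MII in both lines on both scales and Lig4 called higher with TMM scaling but not with library totals. Mgmt, which takes alkyl groups off guanine in a single step, had 263 reads at GV and 4 at MII in the native line, a scaled ratio of 39.1 (95% counting interval 15.1 to 144). In the sex-converted line it had 244 and 6 reads, a ratio of 21.4 (9.70 to 58.9), which became 68.8 and 12.0 without sex-converted MII replicates 1 and 2. Ogg1 is annotated on chromosome 6 at 113326972 to 113335068 (plus strand), Lig1 on chromosome 7 at 13277283 to 13311433 (plus strand) and Mgmt on chromosome 7 at 136894614 to 137130266 (plus strand).

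Levels of different genes were compared per kilobase of annotated exon. This length joins the exons of all annotated transcripts of a gene and can exceed 1 transcript. Xrcc1, for example, has 5831 exon bases and 2528 in its chosen transcript, so the ranks hold for this length only. In native GV oocytes the highest were Msh6 (42.2 ± 6.52), Xrcc5 (38.1 ± 11.5), Rad50 (37.0 ± 14.9), Xrcc1 (21.0 ± 3.61) and Lig4 (18.2 ± 0.547 CPM per kilobase, SD, n = 2 each). The first 3 of these did not differ beyond their spread. In native MII oocytes the highest were Msh6 (115 ± 9.67), Trp53bp1 (46.9 ± 4.07), Lig4 (32.7 ± 7.08), Ogg1 (24.2 ± 2.13) and Ung (16.3 ± 1.63 CPM per kilobase, SD, n = 2 each). Xrcc5 went from rank 2 of 43 to rank 30, and Bard1 from rank 39 to rank 9. The median repair mRNA was at 6.08 CPM per kilobase in native GV and 2.76 in native MII oocytes, and at 5.89 and 2.61 in the sex-converted line. Prkdc was the lowest in GV oocytes, at 0.284 ± 0.0399 CPM per kilobase in the native line (SD, n = 2).

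**Figure D3:**
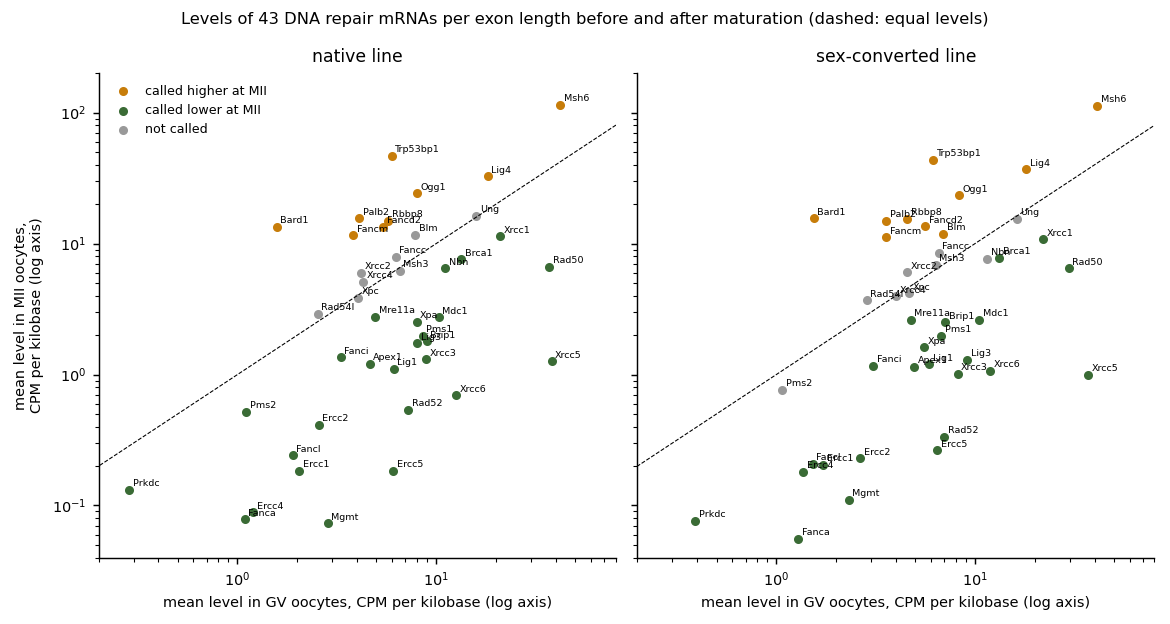
Mean level of each repair mRNA in CPM per kilobase of exon at GV (horizontal) and MII (vertical), both on log axes, in the native line (left) and the sex-converted line (right), without error bars. Orange genes were called higher and green genes lower at MII, grey genes were not called, and the dashed line marks equal levels. Msh6 has the highest mean at both stages, and Bard1 rises from the low end of the GV range to 13.5 CPM per kilobase in the native line.

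The lines were compared within each stage and in how they changed. Of the 43 repair genes 0 were called between the lines at GV, 0 at MII and 0 in the line by stage interaction in edgeR, beside 0.0134% of all tested genes at GV, 0.0134% at MII and 0% for the interaction. In each of these comparisons 0 repair genes had an unadjusted p under 0.05, and DESeq2 also called 0. Over all tested genes 319, 549 and 329 had an unadjusted p under 0.05 at GV, at MII and in the interaction. The 95% interval of the difference stayed inside 2-fold in both directions for 33 of 43 genes at GV, 25 at MII and 17 for the interaction, so differences up to that size, and larger ones in the other genes, could have been missed with 2 libraries a group. The log2 fold change of MII over GV had the same sign in both lines for 40 of 43 genes. How often the sign was shared over all tested genes was not counted, so nothing particular to repair genes is read from this. The largest interaction was that of Prkdc, with -1.23 (95% interval -2.67 to 0.20), followed by Ercc2 and Ercc4 with -0.90 and 0.89.

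Over all tested genes, deviations from group means correlated at -0.44 between same-numbered GV libraries of the 2 lines. For 15 repair genes the highest GV libraries were sex-converted replicate 2 and native replicate 1, as for Rad50, Brip1, Pms1 and Xrcc5. For 13 genes they were sex-converted replicate 1 and native replicate 2, as for Ogg1, Xrcc1, Ung and Fanca. The remaining 15 genes had another pair on top. How often each pair was on top over all tested genes was not counted. The highest GV library was 1.43 times the lowest in the median repair gene and at most 2.62 times.

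A wider list of 82 further repair genes, of which 81 were tested, gave 23 that rose and 37 that fell in the native line and 23 and 41 in the sex-converted line. The share that rose was 28.4% in each line, close to the 29.6% and 29.3% of all tested genes, and the share that fell was 45.7% and 50.6%, beside 35.7% and 36.2% of all tested genes. With library totals as the only scaling these counts were 11 and 51 in each line. Their median was -0.77 on the log2 scale in the native and -0.76 in the sex-converted line. Among further genes of homologous recombination 5 rose and 12 fell of 20 in each line, and among further genes of nucleotide excision repair 5 rose and 7 fell of 14 in the native and 5 and 8 in the sex-converted line. Of 6 genes of translesion synthesis, in which special polymerases copy past damage, 3 rose and 1 fell in the native and 4 rose and 2 fell in the sex-converted line. The shares of all tested genes, 29.6% higher and 35.7% lower in the native line and 29.3% and 36.2% in the sex-converted line, are the background for these small groups, and nothing particular to a group is read from its count.

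The further genes of break and crosslink repair with the largest rises were Wrn, a helicase and exonuclease, from 19.1 and 16.6 to 123 and 135 CPM in the native line (log2 fold change 2.85), the end joining polymerase Polm (2.24) and the resection nuclease Dna2 (2.14). All 3 rose in the sex-converted line too, with 2.87, 2.16 and 2.03. The largest falls were those of Sfr1, a recombination mediator, Uimc1, a subunit that brings Brca1 to ubiquitin chains, and Rpa2, a subunit of the single-strand binding complex. Sfr1 was at 574 to 1119 CPM in the GV libraries and 24.2 to 66.1 CPM in the MII libraries, with log2 fold changes of -5.01 and -3.89. Uimc1 had -4.67 and -4.94. Rpa2 had -4.55 in the native line, and -6.44 and -3.83 without native MII replicates 1 and 2.

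In base and nucleotide excision repair and translesion synthesis the largest rises were those of Gtf2h3, a TFIIH subunit (2.86), the alkyl-adenine glycosylase Mpg (2.38) and Rev1, a translesion polymerase (2.04). Mpg and Rev1 share 35.7% and 26.6% of their exon bases with Nprl3 and Eif5b on the opposite strand. The largest falls were those of Parp2, a sensor of single-strand breaks, Ercc3, the other helicase of TFIIH, and Gtf2h5, its smallest subunit. Parp2 had 630 reads at GV and 9 at MII in the native line, a scaled ratio of 41.6 (95% counting interval 21.8 to 91.4), or 169 and 25.6 without native MII replicates 1 and 2. In the sex-converted line Parp2 had 697 and 20 reads, a ratio of 18.4 (11.8 to 30.2), or 28.1 without MII replicate 1, 13.1 without MII replicate 2 and 12.2 without GV replicate 2. Ercc3 had a log2 fold change of -3.94 and Gtf2h5 of -3.85, and -4.65 and -4.99 without native MII replicate 1. Of the TFIIH subunits named here, Gtf2h3 was higher and Ercc2, Ercc3 and Gtf2h5 were lower at MII in the native line. Gtf2h3, Ercc3 and Gtf2h5 were named for the size of their change, so nothing is read from them about the whole complex.

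The cytoplasmic polyadenylation element, the letters TTTTAT in the DNA sense, directs the lengthening of poly(A) tails in maturing oocytes. It was searched on the transcript strand in the last 100 bases of 1 transcript per gene, and matches that share letters with a polyadenylation hexamer were kept. It was present in 6 of 43 repair genes (14.0%) and in 14.9% of 12555 tested genes with a transcript. The 6 sites are shown with 12 bases on each side, 5′ to 3′ on the transcript strand, with the element in capitals, because they include the gene with the largest rise and 1 of the genes with the largest fall. All lie in annotated 3′ UTRs of GENCODE M21 on GRCm38, and the first letters of the Ercc5 site are a further copy. A polyadenylation hexamer, AATAAA or ATTAAA, was found close to the transcript end in 33 of the 43 repair genes. Among the 6 shown, Ogg1 and Xpc had AATAAA there, and Bard1, Fancm, Ercc5 and Rad54l had neither hexamer. Whether any of these sites acts in these oocytes was not tested.
Bard1, chr1:71027575-71027604, minus strand: aatgtgtgtaatTTTTATtttttcctaatg
Fancm, chr12:65131980-65132009, plus strand: ctcaattctgaaTTTTATcagctggtgggc
Ogg1, chr6:113334119-113334148, plus strand: ggaactgtcttgTTTTATcttccctttatt
Ercc5, chr1:44181186-44181215, plus strand: ttttattctcttTTTTATtttcttgagttt
Rad54l, chr4:116097006-116097035, minus strand: gcccaaaatttaTTTTATaagaaaaacttt
Xpc, chr6:91489327-91489356, minus strand: aggaaagagttcTTTTATaggacctccagg

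By call in the native line, the element was in 3 of 9 repair genes that rose (Bard1, Fancm and Ogg1), 1 of 26 that fell (Ercc5) and 2 of 8 that were not called (Rad54l and Xpc). Over all tested genes it was in 24.9% of those that rose, 7.85% of those that fell and 13.1% of those not called. In the further repair genes it was in 6 of 23 that rose and 7 of 37 that fell. Palb2, Trp53bp1, Msh6, Rbbp8, Fancd2 and Lig4 rose without these letters in that window. A match is a description of the annotated end, which may not be the end used in these oocytes. The repair genes that rose had a median exon length of 7342 bases and those that fell 5763 bases, beside 4931 and 3537 bases over all tested genes.

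**Figure D4:**
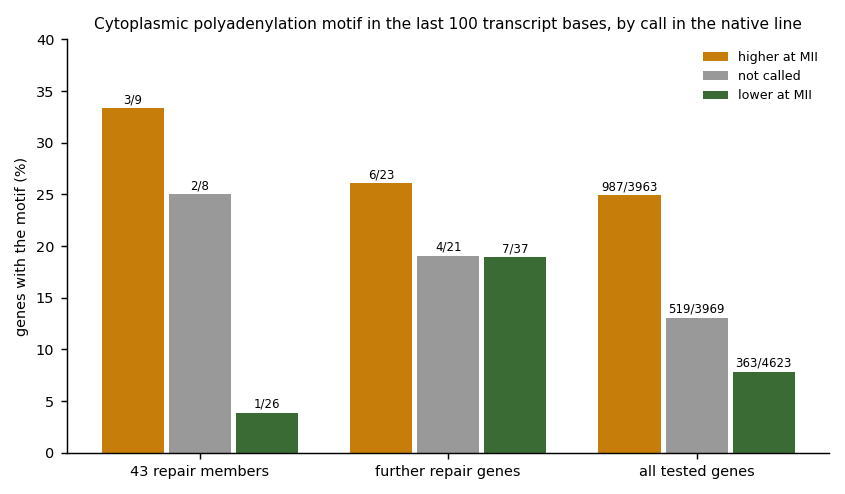
Share of genes in percent with the cytoplasmic polyadenylation element in the last 100 bases of the chosen transcript, for the 43 repair genes, the further repair genes and all tested genes, by call in the native line. Numbers over the bars give genes with the element and genes in the class. The share is highest among genes that rose in each of the 3 groups of genes, though the repair bars rest on few genes.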

How the data were processed

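The authors deposited raw counts of reads per gene for 8 libraries in 1 table, per the file headers. Per the submitters' processing notes, Trimmomatic 0.38, HISAT2 2.1.0, featureCounts 2.0.0, DESeq2 1.30.1 and mm10 were used. The kit was directional, per the labels' protocols, but which strand was counted, how multiple matches were handled and which annotation was used were not given in the sources used here. Names, exon lengths and transcripts came from GENCODE M21, which matched 55144 identifiers and missed 241 (0.00326% of reads).

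Counts were tested in edgeR 4.0.16 (R 4.3.3) by the quasi-likelihood method with TMM, filterByExpr at a minimum count of 10 and 1 fit of all 8 libraries with 4 residual degrees of freedom, two-sided, with Benjamini-Hochberg adjustment over 14929 genes. SE was computed by dividing the size of the log2 fold change by the root of F. GV libraries had TMM factors of 1.33 to 1.43, MII libraries 0.714 to 0.733. The script was tested on simulated data in which few genes changed, in native MII only, so this did not check the scaling. Ratios of low counts carry exact counting intervals of 95%.

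Values per library are given for the called member with the largest rise and fall in each pathway at 10 CPM or more, and for some others chosen after their values were seen. Further genes follow the same limit, up to 3 per direction. The members and lists were chosen with earlier results of these data known. Alternatives were RLE factors, library totals, DESeq2 1.42.0, other filters, a replicate block, fits of only the libraries compared and leaving out each library. The element was also searched in the last 200 bases.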

Additional observations from a re-analysis of the deposited data

How the results depend on the processing

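With library totals as the only scaling, repair genes higher at MII numbered 5 in the native and 6 in the sex-converted line, against 9 and 10 with TMM, and further repair genes 11 and 11 against 23 and 23, beside 51 lower in each line. Some signs then turned, listed here for genes called on either scale in the line given. They were those of Blm (-0.15) and Msh3 (-0.81) in the sex-converted line and Lig4 (-0.062) and Ung (-0.88) in the native line. Signs that turned in genes called on neither scale are not listed. The change of scaling also moved the median of all tested genes, and which scale is nearer to the oocytes was not tested. With single libraries left out, native counts were 8 to 11 higher and 22 to 25 lower, and sex-converted counts 9 to 10 and 22 to 24. DESeq2 gave 9 and 25 in the native and 10 and 24 in the sex-converted line. RLE factors gave 10 and 24 in each line, and ended the native calls of Nbn (-0.73, adjusted p = 0.051 in edgeR) and Prkdc (-1.06, adjusted p = 0.0537).

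With the replicate number as a block, 9 repair genes rose and 24 fell in the native line and 10 and 24 in the sex-converted line, and the native calls of Nbn (adjusted p = 0.0623 in edgeR) and Prkdc (0.0707) were lost, with no other repair call lost or gained. Whether equal numbers pair the samples is not stated in the sources used here. Deviations from group means correlated at -0.44 between same-numbered GV libraries and at -0.06 to 0.17 for the other pairs of groups, which cannot settle it. A block with the GV numbers crossed, chosen after seeing the data, gave 10 higher and 26 lower in the native and 10 and 24 in the sex-converted line, and 0 calls between the lines.

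Depth limits Mgmt, Ercc4, Ercc1, Fanca, Fancl, Ercc5, Prkdc, Apex1 and Ercc2, each with 4 to 34 reads at MII in both lines.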
